A study of Mus musculus with 16 samples.

Results

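The Schlafen and Ly6 genes described here are 9 mouse genes of 2 families, namely Slfn1, Slfn2, Slfn3, Slfn4 and Slfn5, and Ly6a, Ly6c1, Ly6d and Ly6e. They were found on a whole mouse genome oligonucleotide array as every non-control probe named for one of them, or by the older symbol Ly6c for Ly6c1. The rule found 11 probes out of 41174, with 2 probes each for Slfn3 and Ly6c1 and 1 for each other gene. Of the 9 genes, 7 gave enough signal to be tested, among 18411 genes tested in all. Slfn4 and Slfn5 did not, and are described by their signals alone.

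RNA came from CD8 T cells of C57BL/6N female mice aged 7 weeks, with no genetic change named in the labels. A cell sorter divided the CD8+ Thy1.2+ cells by surface CD44, giving a CD44-low fraction (naive) and a CD44-high fraction (memory phenotype, a state that in unimmunised mice also includes cells that never met a foreign antigen). Each fraction spent 4 h in culture. The resting groups had plain medium, and the stimulated groups had ionomycin (500 ng/ml), a calcium ionophore, together with PMA (10 ng/ml), a phorbol ester that switches on protein kinase C. The 2 agents act downstream of the T cell receptor and are not a model of antigen itself. The 16 single-colour arrays form 4 groups of 4, named by fraction and culture (naive or memory, resting or stimulated), and all cells had been cultured, the resting ones included. The series' design states that the sorting and culture were repeated on 4 independent occasions, without saying how many mice each used. A log2 level of 0 is the 75th percentile of the signals on that array, and each unit is a doubling. Levels of different probes are not on a common scale, so each gene is compared with itself across groups.

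On the 16 arrays the 75th percentile ranged from 504.3 to 678.0 intensity units, and between 59.3% and 66.5% of spots were well above background. None of the members' spots was saturated or marked as an outlier. Each group was hybridised to a slide of its own and scanned alone, so slide, scan and group cannot be told apart in any comparison. Markers of the labelled cell type were read, each compared with itself across groups. Cd8a stood at 5.02 ± 0.39 (SD, n = 4) in naive resting and 5.22 ± 0.14 in memory resting cells. Cd4 stood at -4.47 ± 0.45 and -4.18 ± 0.10, and was well above background on 4 of 4 arrays of both groups. At rest 2 of 4 tested CD4 or regulatory T cell markers were higher in memory cells, against 13.9% of all genes, with none lower. Zbtb7b rose the most of these markers, from -5.67 ± 0.42 to -2.24 ± 0.16. The purity of the fractions was not tested. Markers of other cells were also detected, and their values are given beside the members they move with. Of the calls over all genes, the share that was higher depended on scaling. It was 65.0% at rest between memory and naive cells, but 47.4% after normexp background correction of the raw spots in its repaired form, 50.3% in the authors' table and 28.6% with each array scaled to its median. In the memory response it was 42.4%, but 57.4% with median scaling. Between the stimulated groups it was 40.9%, but 59.9% with median scaling. In the difference between the 2 responses it was 28.4%, against 44.0% with the repaired normexp correction, 40.7% with quantile normalization, 46.0% in the authors' table and 72.2% with median scaling. Against the main scaling, the median of all genes in the memory response, which was -0.21, became -0.01 with the repaired normexp correction, -0.10 in the authors' table and 0.14 with median scaling. The resting difference moved from -0.01 to -0.23 and the interaction from -0.01 to 0.34 with median scaling.

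Schlafen genes were named for a growth-slowing effect of the first members in developing T cells. They encode proteins of the cytosol or nucleus with a shared core domain and come in short forms (Slfn1, Slfn2), intermediate forms (Slfn3, Slfn4) and long forms with a helicase-like part (Slfn5). Many are induced by type I interferon, and Slfn2 is needed for T cells to stay quiescent and to survive activation. Ly6 proteins are small cell-surface proteins, most of them held in the membrane by a GPI anchor. Several serve as markers of lymphocyte subsets and of activation, and some of their genes respond to interferon.

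The 5 Schlafen genes lie close together on chromosome 11, and the 4 Ly6 genes on chromosome 15. The bases just upstream of a transcript start are shown for 4 of the 5 Schlafen genes because these windows share a 9-base stretch. The sequences are from RefSeq (GRCm38.p6), run 5′ to 3′ on the plus strand, and end at the base before the start. Capitals mark the stretch ACTTCCTGG, which holds an ETS-type core on the opposite strand. RefSeq lists several transcripts for Slfn4 and Slfn5. The Slfn4 window ends just inside the gene's annotated span, and that of Slfn5 lies within the gene's span, upstream of a later transcript start, and is not printed. Entries were found for 6 of the 9 genes, and Ly6a, Ly6d and Ly6e had none.
Slfn1, chr11:83116640-83116819: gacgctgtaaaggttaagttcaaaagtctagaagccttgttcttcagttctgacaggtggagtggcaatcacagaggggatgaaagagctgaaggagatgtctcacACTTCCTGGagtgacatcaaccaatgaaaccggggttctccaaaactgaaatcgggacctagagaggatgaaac
Slfn2, chr11:83064932-83065111: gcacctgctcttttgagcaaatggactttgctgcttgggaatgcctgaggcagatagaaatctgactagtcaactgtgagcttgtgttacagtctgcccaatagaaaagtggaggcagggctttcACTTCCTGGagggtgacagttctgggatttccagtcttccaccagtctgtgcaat
Slfn3, chr11:83191150-83191329: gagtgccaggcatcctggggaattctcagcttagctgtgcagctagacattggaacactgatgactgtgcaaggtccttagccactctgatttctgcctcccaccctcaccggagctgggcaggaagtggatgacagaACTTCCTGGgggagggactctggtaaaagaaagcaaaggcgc
Slfn4, chr11:83175006-83175185: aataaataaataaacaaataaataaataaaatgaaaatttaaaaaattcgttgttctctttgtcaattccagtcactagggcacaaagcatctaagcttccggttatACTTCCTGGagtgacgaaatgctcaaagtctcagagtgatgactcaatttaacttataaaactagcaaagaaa

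Searched on both strands over the 250 bases before each start, ACTTCCTGG lay 74 to 66 bases before the start of Slfn1, 55 to 47 before Slfn2, 42 to 34 before Slfn3 and 73 to 65 before Slfn4. It was found in 230 of 32851 such windows (0.70%). It was absent from the windows of Slfn5, Slfn8, Slfn9 and Slfn14. An interferon-stimulated response element, read as a pair of GAAA separated by any 2 bases, was found 155 to 146 bases before that later start of Slfn5 and in 2.98% of windows, and the AP-1 site TGANTCA 34 to 28 bases before Slfn4 and in 6.75%. The gamma-activated sequence TTCNNNGAA was in no member window and in 7.02% of all. None of the matches overlapped another of these motifs, and the upstream windows of Ly6c1 held none. The stretch was chosen after the sequences were read, in neighbouring genes of the same family, so its share of all windows is no test of its presence here. Its 4 carriers did not move alike: Slfn1 fell, Slfn2 and Slfn3 rose in memory cells, and Slfn4 was detected at rest only.

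In naive cells, stimulation raised 2 members (Ly6a and Ly6c1) and lowered 3 (Slfn1, Ly6d and Ly6e). This is 5 of 7 tested, or 71.4%, where 68.7% of all genes were called, 36.7% higher and 32% lower (limma, Benjamini-Hochberg adjusted p under 0.05). In memory cells 2 rose (Slfn2 and Slfn3) and 4 fell (Slfn1, Ly6c1, Ly6d and Ly6e), which is 6 of 7, or 85.7%, against 70.8% of all genes, 30.1% higher and 40.8% lower. Between resting groups 2 of 7 (28.6%) differed, Ly6a and Ly6c1, both higher in memory cells. The share among all genes was 21.3%, with 13.9% higher and 7.47% lower. Between stimulated groups 4 of 7 (57.1%) differed, with Slfn2, Slfn3 and Ly6c1 higher and Ly6a lower in memory cells, against 24.1% of all genes, 9.86% higher and 14.2% lower. The response itself differed between the fractions (interaction) for 3 of 7 (42.9%), Slfn2, Ly6a and Ly6c1, against 19.8% of all genes, 5.62% higher and 14.1% lower. The shares in the 2 responses and at rest are near those of all genes or rest on few members. Those between stimulated groups and in the interaction rest on the same 7 genes. Slfn2, counted in both, lost both calls with quantile normalization and in the authors' table. No share was tested against the background. The median change of the tested members was 0.23 in naive and -0.96 in memory cells, beside 0.11 and -0.21 over all genes. With replicate 1 of every group left out, a choice made after seeing the data, 5, 5, 1, 4 and 3 members passed in these 5 comparisons, in the same order. The normexp correction as first planned failed on 3 arrays, and with it 3 members passed in naive cells, 1 at rest, 0 after stimulation and 1 in the interaction (limma).

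**Figure D1:**
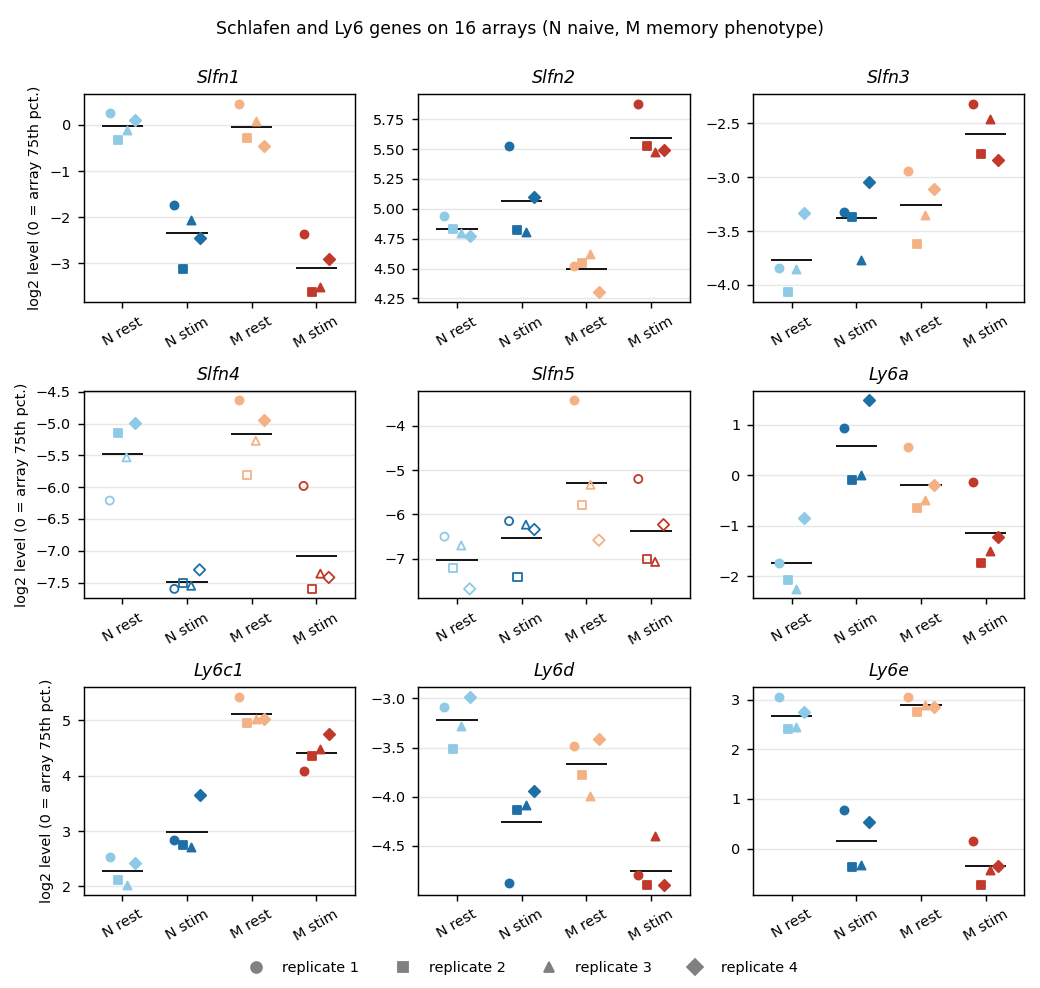
Log2 level of each gene on each of the 16 arrays, by group and replicate number (marker shape), with the group mean as a line; 0 is the array's 75th percentile, each panel has its own scale, and open symbols are spots not well above background. Slfn1 and Ly6e fell in both fractions, Ly6a crossed over between them, and Slfn4 was above background on 2 of 4 arrays of each resting group.

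Slfn1, a short Schlafen whose forced expression slows thymocyte growth, fell on stimulation in both fractions. Its probe (chr11:83203729-83203788, mm7) read 0.26, -0.33, -0.12 and 0.11 in naive resting cells and 0.46, -0.29, 0.08 and -0.46 in memory resting cells. After stimulation it read -1.73, -3.12, -2.07 and -2.45 in naive cells and -2.36, -3.63, -3.52 and -2.91 in memory cells. All 8 stimulated arrays lay below all 8 resting arrays. The fall was -2.32 ± 0.32 (SE), or 5-fold, in naive cells (limma adjusted p = 8.55e-06) and -3.05 ± 0.32, or 8.29-fold, in memory cells (4.2e-07). The resting groups overlapped, with a memory minus naive difference of -0.03 (95% interval -0.71 to 0.64). The difference between the 2 falls was -0.73 (-1.68 to 0.22; adjusted p = 0.281), an interval that includes both no difference and a deeper fall in memory cells. With the normexp correction as first planned, which failed on 3 arrays, the memory fall was -1.36.

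Slfn2, the short Schlafen that keeps T cells quiescent and viable, rose in memory cells. Its probe (chr11:83151864-83151923) was bright on every array. It read 4.94, 4.83, 4.80 and 4.77 in naive resting and 4.52, 4.55, 4.62 and 4.30 in memory resting cells. Stimulated naive arrays read 5.53, 4.82, 4.81 and 5.10, and stimulated memory arrays 5.88, 5.53, 5.48 and 5.49. The memory groups did not overlap, while the naive groups did. The change was 1.10 ± 0.15, or 2.14-fold, in memory cells (limma adjusted p = 1.02e-05), but 0.50 with quantile normalization and 0.45 in the authors' table. In naive cells it was 0.23 ± 0.15 (95% interval -0.09 to 0.55; adjusted p = 0.19). There the sign turned to -0.25 with quantile normalization and -0.08 in the authors' table, and the value passed the threshold at 0.45 with the repaired normexp correction. The memory response exceeded the naive one by 0.87 ± 0.21 (adjusted p = 0.0101), a difference not called with quantile normalization (0.75, adjusted p = 0.0583) or in the authors' table (0.53, 0.157).

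At rest the memory minus naive difference in Slfn2 was -0.34, which missed the threshold over all genes (limma adjusted p = 0.132) although the ranges did not overlap. With median scaling it was -0.56 and called (0.0213). After stimulation it was higher in memory cells by 0.53 ± 0.15 (adjusted p = 0.0191). That call was lost without memory stimulated replicate 1 (0.44, adjusted p = 0.0671), naive stimulated replicate 2 (0.45, 0.0691) or naive stimulated replicate 3 (0.45, 0.0668). It was also lost with quantile normalization (0.52, 0.0541), in the authors' table (0.47, 0.0658) and in a fit of the compared groups alone (0.53, 0.0659). Slfn2 and Slfn1, both short forms and both with the shared upstream stretch, thus read in opposite directions in stimulated memory cells on the same arrays.

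Slfn3, an intermediate Schlafen, gave low but detected signal through 1 of its 2 probes (chr11:83284834-83284893). Levels were -3.84, -4.07, -3.85 and -3.33 in naive resting and -2.94, -3.62, -3.35 and -3.11 in memory resting cells. They were -3.32, -3.37, -3.77 and -3.05 in stimulated naive and -2.32, -2.79, -2.46 and -2.84 in stimulated memory cells. Every stimulated memory array was above every array of the other 3 groups. The rise in memory cells was 0.65 ± 0.20, or 1.57-fold (limma adjusted p = 0.00848), and 1.0 with median scaling. In naive cells the change was 0.40 ± 0.20 (95% interval -0.02 to 0.82; adjusted p = 0.0871), and it was called without naive stimulated replicate 3 (0.53, 0.0327) or naive resting replicate 4 (0.54, 0.0228). Stimulated memory cells exceeded stimulated naive cells by 0.77 ± 0.20 (adjusted p = 0.0106), 0.42 with the repaired normexp correction and 0.69 without replicate 1 of every group, where the adjusted p was 0.0508. At rest the difference was 0.52 (0.10 to 0.94), with a limma adjusted p of 0.0763, or 0.0412 with the replicate number as a block. It was also called when memory resting replicate 2 (0.64, 0.0452) was left out, and likewise for naive resting replicate 4 (0.67, 0.0273). The other Slfn3 probe (chr11:83287467-83287526) was not well above background on any of the 16 arrays, so the value rests on 1 probe.

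Slfn4, the other intermediate form and best known from myeloid cells, was near background. Its probe (chr11:83259377-83259436) was well above background on 2 of 4 arrays of each resting group and on none of the 8 stimulated arrays. The signals at rest were 7.19, 17.3, 14.6 and 17.1 intensity units in naive and 27.2, 12, 16.1 and 19.3 in memory cells. After stimulation they were 3.33, 3.15, 3.11 and 3.2 in naive and 9.7, 3.2, 3.1 and 3.23 in memory cells. With only 2 of 4 arrays detected in each resting group, no fold is given. Most myeloid markers also fell: of 14 tested markers of monocytes, macrophages and neutrophils, 10 fell and 1 rose in naive cells and 11 fell in memory cells. Among all genes 32% were called lower in naive and 40.8% in memory cells. The summed linear level of these markers was 8.97 to 15.3 in naive resting and 1.77 to 3.30 in naive stimulated arrays, and 18.6 to 25.2 against 4.38 to 6.01 in memory cells. Such a sum adds probes that are not on a common scale, so its brightest probes weigh the most. Cybb and Fcgr3 were above background on 0 of 4 naive stimulated arrays, but on 4 of 4 memory stimulated arrays, where Slfn4 was on none. S100a9 was detected in all groups and stood at 2.75 ± 0.45 in naive resting and -0.31 ± 0.41 in naive stimulated cells. The part of such cells in the Slfn4 signal was not tested, and in RNA from whole sorted fractions fewer cells of a type and less RNA per cell cannot be told apart.

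Slfn5, the long form, was well above background on 1 of 16 arrays through its probe (chr11:83043722-83043781). That array was memory resting replicate 1, at 62.7 intensity units, where the other 3 memory resting arrays read 12.2, 15.4 and 6.15. Signals ran from 2.64 to 6.51 in naive resting, from 3.34 to 9.10 in naive stimulated and from 3.81 to 16.7 in memory stimulated cells. With 1 detected array of 16 no fold is given.

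Of 5 other Schlafen genes listed, 3 were tested. None was called in naive cells (limma; values of -0.70 for Slfn8, -1.12 for Slfn9 and -0.70 for the pseudogene Slfn10-ps). In memory cells 2 of 3 fell, where 40.8% of all genes did. The 2 were Slfn9 (-2.50 ± 0.56, limma adjusted p = 0.000944) and Slfn8 (-2.15 ± 0.53, adjusted p = 0.00202), both long forms. Without replicate 1 of every group, 2 of 3 also fell in naive cells. With the replicate number as a block, 2 of 3 were higher in memory cells at rest, where none was called without it (limma). The Schlafen genes on these arrays therefore split, with Slfn1, Slfn8 and Slfn9 lower and Slfn2 and Slfn3 higher in stimulated than in resting memory cells.

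Ly6a encodes Sca-1, a surface marker of haematopoietic stem cells that is also induced on activated T cells and by interferon. Its probe (chr15:75075673-75075732) gave the largest difference in response between the fractions among the 7 tested members, by value. Naive resting arrays read -1.74, -2.07, -2.25 and -0.85, and naive stimulated arrays 0.93, -0.10, 0.01 and 1.49, with no overlap. Memory resting arrays read 0.56, -0.64, -0.49 and -0.20, and memory stimulated arrays -0.14, -1.73, -1.50 and -1.22, with overlap. Stimulation raised Ly6a by 2.31 ± 0.43, or 4.95-fold, in naive cells (limma adjusted p = 0.000183). In memory cells the change was -0.96 ± 0.43 (95% interval -1.86 to -0.05), which missed the threshold (adjusted p = 0.0563). It passed without memory stimulated replicate 1 (-1.29, adjusted p = 0.0126), memory resting replicate 2 (-1.11, 0.0473), naive resting replicate 4 (-0.96, 0.0429) or naive stimulated replicate 4 (-0.96, 0.0424), and in a fit of the compared groups alone (-0.96, 0.0434), so its call is not settled. The memory response minus the naive response was -3.26 ± 0.60 (adjusted p = 0.00141), called under each alternative run and between -3.60 and -2.52 over them.

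The order of the 2 fractions was thus reversed by stimulation. At rest Ly6a was 1.53 ± 0.43, or 2.89-fold, higher in memory cells (limma adjusted p = 0.0184). The call was lost without memory resting replicate 1 (1.28, adjusted p = 0.067), naive resting replicate 2 (1.42, 0.0562) or naive resting replicate 3 (1.36, 0.0615), and without replicate 1 of every group (1.28, 0.0572). After stimulation it was -1.73 ± 0.43, or 3.32-fold lower, in memory cells (adjusted p = 0.00825). By mean level the order was naive stimulated, memory resting, memory stimulated and naive resting, and each pair of neighbours in that order overlapped.

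**Figure D2:**
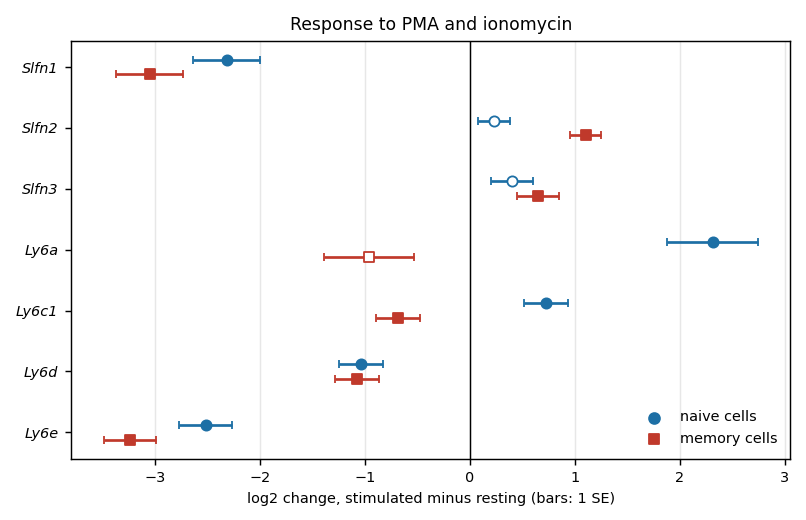
Log2 change from resting to stimulated cells for the 7 tested genes in naive (circles) and memory phenotype cells (squares), with bars of 1 standard error from the fit; filled symbols passed the adjusted threshold. Slfn1, Ly6d and Ly6e fell in both fractions, while Ly6a was at 2.31 in naive and -0.96 in memory cells.

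Ly6c1, a Ly6 gene whose protein is used to tell memory from naive CD8 T cells, had 2 probes, both detected on all 16 arrays. The brighter one (chr15:75125619-75125674) represents the gene. It read 2.53, 2.11, 2.02 and 2.42 in naive resting and 5.43, 4.95, 5.03 and 5.03 in memory resting cells. After stimulation it read 2.84, 2.74, 2.72 and 3.65 in naive and 4.09, 4.35, 4.48 and 4.75 in memory cells. The 4 groups did not overlap at all, in the order memory resting, memory stimulated, naive stimulated and naive resting. Ly6c1 was higher in memory cells by 2.84 ± 0.21, or 7.15-fold, at rest (limma adjusted p = 1.33e-07) and by 1.43 ± 0.21, or 2.69-fold, after stimulation (0.000167). This resting difference was the largest between fractions among the members, and it was called under each alternative run (2.61 to 3.17).

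By this probe Ly6c1 rose by 0.72 ± 0.21 in naive cells (adjusted p = 0.00663) and fell by 0.69 ± 0.21 in memory cells (limma change -0.69, adjusted p = 0.00809). The response differed between fractions by -1.41 ± 0.30 (adjusted p = 0.00352). The memory fall was -1.30 with quantile normalization and -1.33 in the authors' table, but was not called with median scaling (-0.34, adjusted p = 0.133) or without replicate 1 of every group (-0.47, 0.0887). The naive rise was 0.39 in the authors' table (adjusted p = 0.0856).

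The second probe (chr15:75125832-75125891) lies in the same region, and the 2 probes are set side by side because they disagree on the naive response. The first 30 of their 60 bases, from the deposited files, are as follows, the brighter probe first.
A_51_P197528: tattatactatcaccatccacacataagta
A_52_P230938: ggagtcctctagtgacaaattatatgttat
The second probe read -0.03, -0.58, -0.51 and -0.28 in naive resting, and -0.94, -0.58, -0.47 and -0.12 in naive stimulated cells. These overlap, and the change was -0.18 ± 0.21 (adjusted p = 0.475 over 27361 probes). In memory cells it read 3.23, 2.52, 2.74 and 2.80 at rest and 1.37, 1.69, 1.84 and 2.27 after stimulation, a fall of -1.03 ± 0.21 (adjusted p = 0.000508). Between fractions it gave 3.17 ± 0.21, or 9.02-fold, at rest (6.13e-08) and 2.32 ± 0.21 after stimulation (2.42e-06), so both probes were higher in memory cells in both states.

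Within each array, the brighter probe exceeded the other by 2.62 ± 0.09 (SD, n = 4) in naive resting and 3.52 ± 0.30 in naive stimulated cells. The change of 0.89 had an unadjusted p = 0.0286 by an exact two-sided permutation test, the smallest that 4 arrays against 4 allow. The probes were set side by side because of this disagreement, so that p is no independent support for it. In memory cells the gap went from 2.29 ± 0.10 to 2.63 ± 0.10, a change of 0.34 with the same exact p. With the second probe in place of the first, the interaction was -0.85 (adjusted p = 0.0652 in the fit over genes). Ly6c1 has a near-identical neighbour, Ly6c2, for which no probe was named in the files, so which of these genes each probe reads cannot be told apart here. The longest run of bases that these probes share with any of the 28 Schlafen and Ly6 probes on the array was 8 for the brighter probe, with the Ly6e probe, and 10 for the other, with the Ly6a probe.

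**Figure D3:**
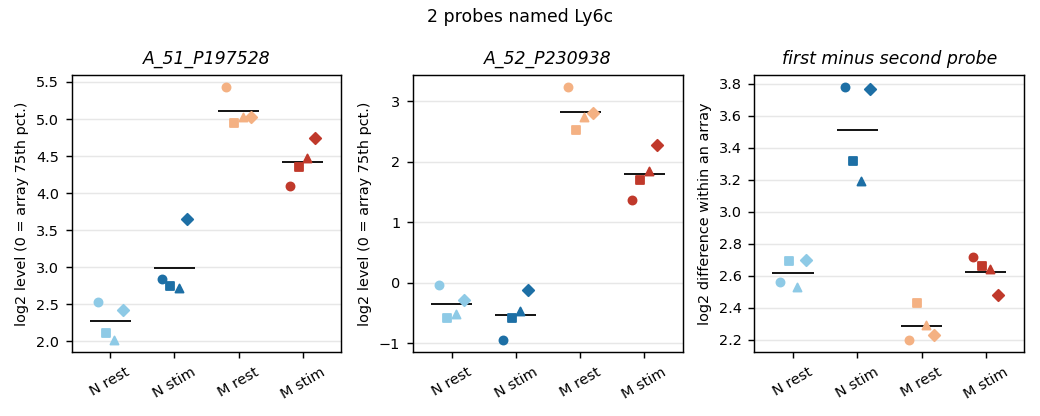
Log2 level of the 2 probes named Ly6c on each array and, at right, the first minus the second within an array; lines are group means and marker shape is the replicate number. The within-array gap was widest in naive stimulated cells, at 3.52 on average, against 2.29 to 2.63 in the other groups.

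Some genes listed as markers of other cells were also higher in the memory fraction, and their values stand beside Ly6c1 and Ly6a for that reason. Among all genes 13.9% were called higher and 7.47% lower at rest, and 9.86% and 14.2% after stimulation. Of 10 tested markers of NK or NKT cells, 8 were higher in memory cells at rest and all 10 after stimulation. Their summed level was 50.1 to 70 in naive and 83.3 to 95.6 in memory resting cells. The brightest probe in that sum was Klrd1, at 5.60 ± 0.25 in naive and 5.72 ± 0.21 in memory resting cells. Klrc1, an inhibitory receptor that memory CD8 T cells can also express, differed the most of the 10, at -2.69 ± 0.34 and 3.64 ± 0.08. Of 14 myeloid markers, 5 were higher in memory cells at rest, led by Ccr2 (5.17 ± 0.32, adjusted p = 2.3e-08), a chemokine receptor that memory T cells share with the Ly6C-high monocyte. None of the 14 was called lower, and 9 were not called. S100a8 stood at -0.20 ± 0.48 in naive and -0.16 ± 0.76 in memory resting cells, and Mpo at -2.69 ± 0.39 and -2.67 ± 0.37. Lyz2 stood at 1.15 ± 0.41 in naive and 2.67 ± 0.34 in memory resting cells. Cybb stood at -4.81 ± 0.83 and -2.55 ± 0.70, and Fcgr3 at -2.05 ± 0.38 and -0.86 ± 0.17. Csf1r, the receptor that defines macrophages, stood at -3.60 ± 0.36 in naive and -3.38 ± 0.41 in memory resting cells. A list of 9 genes of dendritic cells and antigen presentation by MHC class II held 7 that were higher in memory resting cells. Ncr1, which defines NK cells, was above background on 0 of 8 naive arrays, on 1 of 4 memory resting and on 3 of 4 memory stimulated arrays. The lists do not separate other cells from memory T cells that express such genes. Whether other cells were present, and their part in the Ly6c1 and Ly6a differences, was not tested.

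Ly6d, a marker of B lymphoid progenitors and of some plasmacytoid dendritic cells, had low signal that fell on stimulation in both fractions. Its probe (chr15:74842671-74842730) read -3.09, -3.51, -3.28 and -2.98 in naive resting and -3.48, -3.78, -3.99 and -3.41 in memory resting cells. It read -4.88, -4.13, -4.08 and -3.94 in naive stimulated and -4.80, -4.90, -4.40 and -4.90 in memory stimulated cells. Within each fraction the resting and stimulated arrays did not overlap. The fall was -1.04 ± 0.21, or 2.06-fold, in naive cells (limma adjusted p = 0.000326) and -1.08 ± 0.21, or 2.12-fold, in memory cells (0.000224). The size depended on background correction, at -0.41 and -0.28 with the repaired normexp correction, and at -0.68 and -0.42 in the authors' table, with -0.69 in memory cells after quantile normalization. With the normexp correction as first planned the values were -0.03 and 0.92, neither called, so the memory value changed sign. The responses differed by -0.04 (95% interval -0.66 to 0.58). At rest the memory minus naive difference in Ly6d was -0.45 (limma adjusted p = 0.137). It was called with quantile normalization (-0.64, 0.0245), median scaling (-0.67, 0.0126) and in the authors' table (-0.44, 0.00902). After stimulation the difference was -0.49 (limma adjusted p = 0.0974). It was called without naive stimulated replicate 1 (-0.70, 0.00929) or without replicate 1 of every group (-0.68, 0.0268).

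Some B cell markers fell as well. Of 6 tested, 2 fell in naive and 4 in memory cells, and none rose, where 32% and 40.8% of all genes fell. Cd79b, part of the B cell receptor complex, went from 0.58 ± 0.23 to -4.04 ± 0.59 in naive cells. The summed B cell level was 24.5 to 35.0 in naive resting and 11.3 to 14.5 in naive stimulated arrays, with 30.5 to 36.3 and 13.9 to 17.7 in memory cells. That sum rests mostly on Ighm, the brightest of its probes, at 4.82 ± 0.22 in naive resting and 3.59 ± 0.17 in naive stimulated cells. Ly6d itself is on the list of plasmacytoid markers, of which 2 of 5 tested rose and 2 fell in naive cells, Ly6d among the latter. The part of B cells in the Ly6d signal was not tested.

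Ly6e, also called TSA-1 or Sca-2, marks immature thymocytes and is induced by interferon in many cells. It fell the most of the members. Its probe (chr15:75039587-75039646) read 3.06, 2.41, 2.45 and 2.75 in naive resting and 3.06, 2.75, 2.89 and 2.85 in memory resting cells. After stimulation it read 0.77, -0.37, -0.33 and 0.53 in naive and 0.15, -0.74, -0.44 and -0.35 in memory cells. All 8 stimulated arrays lay below all 8 resting ones. The fall was -2.52 ± 0.25, or 5.72-fold, in naive cells (limma adjusted p = 3.32e-07) and -3.24 ± 0.25, or 9.42-fold, in memory cells (1.85e-08). Under the alternatives run it lay between -2.72 and -2.34 in naive and between -3.42 and -2.89 in memory cells. The 2 falls differed by -0.72 (95% interval -1.49 to 0.05; adjusted p = 0.182), and the resting groups by 0.22 (-0.32 to 0.76).

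Of 35 other genes with a Ly6 or uPAR domain, 20 were tested. In naive cells 8 rose and 4 fell, with a median change of 0.30, and in memory cells 2 rose and 13 fell, with a median of -0.93. The memory median and number of falls were -0.20 and 9 with the repaired normexp correction, -0.26 and 9 in the authors' table, -0.54 and 11 with quantile normalization and -0.58 and 12 with median scaling. In naive cells the repaired normexp correction left 7 higher and 2 lower, with a median of 0.18, and the authors' table gave a median of 0.16. Among all genes 36.7% were called higher and 32% lower in naive cells, and 30.1% and 40.8% in memory cells. Some of the 20 were near background. On memory stimulated arrays Cd177 and Lypd3 were above it on 0 of 4, and Psca, Lypd5 and Tex101 on 1 of 4. Plaur, the urokinase receptor, rose in both, by 1.79 ± 0.24 in naive and 2.75 ± 0.24 in memory cells (limma adjusted p = 7.84e-06 and 6.33e-08). Lypd6b fell the furthest in both (-5.13 ± 0.16 and -4.46 ± 0.16). In the interaction 11 of 20 were lower and none higher, against 14.1% lower over all genes. That split became 3 higher and 10 lower with median scaling, 3 and 7 with quantile normalization and 2 and 8 with the repaired normexp correction. Lypd2 was the lowest (-2.45 ± 0.37, adjusted p = 0.000277), rising by 0.92 in naive cells (adjusted p = 0.00537) and falling in memory cells (-1.53, 8.57e-05). At rest 6 of 20 were higher and 4 lower in memory cells, against 13.9% and 7.47% of all genes. The highest was Ly6i, a neighbour of Ly6a and Ly6c1 in the chromosome 15 cluster (1.55 ± 0.18, adjusted p = 1.97e-05), and the lowest was Plaur (-2.86 ± 0.24).

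Several members are known as interferon-responsive genes, and a list of 42 interferon-stimulated genes that holds no member was set beside them. Of 39 tested, 4 rose and 24 fell in naive cells, and none rose and 32 fell in memory cells, with median changes of -1.24 and -2.17. The naive rises numbered 2 with quantile normalization or in the authors' table, and the memory rises 1 with median scaling or the block and 2 without replicate 1 of every group. In naive cells the largest fall was in Ifit2, an antiviral RNA-binding protein (-3.96 ± 0.26), and the largest rise in Irgm1, an immunity-related GTPase (1.56 ± 0.28). Irgm1 fell in memory cells (-1.96 ± 0.28) and had the lowest interaction of the list (-3.53 ± 0.40, adjusted p = 1.99e-05), beside -3.26 for Ly6a. At rest, where 13.9% of all genes were higher and 7.47% lower, 13 of 39 were higher and none lower in memory cells. The antiviral GTPase Mx1 led them (2.60 ± 0.55, limma adjusted p = 0.00349). The resting count was 10 with median scaling, 16 with the repaired normexp correction, 17 in the authors' table and 19 without replicate 1 of every group. With the replicate number as a block it was 22; all 4 same-numbered pairs of resting arrays deviated together. Of 12 interferon receptor and signalling genes, all tested, 4 rose and 6 fell in naive cells, and 4 rose and 8 fell in memory cells. Ifngr2, a chain of the interferon-gamma receptor, fell the most (-4.43 ± 0.22 and -3.64 ± 0.22). Slfn1, Ly6d and Ly6e fell in both fractions, as most of the interferon list did. Over all genes 32% were called lower in naive and 40.8% in memory cells, and a link of these members to interferon was not tested. Ly6c1 fell in memory cells only among the calls, Ly6a was at -0.96 there without passing, and Slfn2 and Slfn3 rose there.

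Replicate 1 was the highest of its group in 4 of 4 groups for Slfn1 and Ly6e, in 3 of 4 for Slfn2 and for the mean of the interferon list, in 2 of 4 for Slfn3, Ly6a and Ly6c1, and in 0 of 4 for Ly6d. For Slfn1 it lay 0.28, 0.51, 0.61 and 0.74 above the group mean in resting naive and memory cells and then in stimulated naive and memory cells. For Ly6e these values were 0.39, 0.17, 0.62 and 0.49, and for the interferon list 0.33, 0.85, -0.12 and 0.72. Without replicate 1 of every group, the calls for Slfn1 and Ly6e in both responses were kept. Replicate number is also the position on the slide, and what replicate 1 arrays share was not tested.

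**Figure D4:**
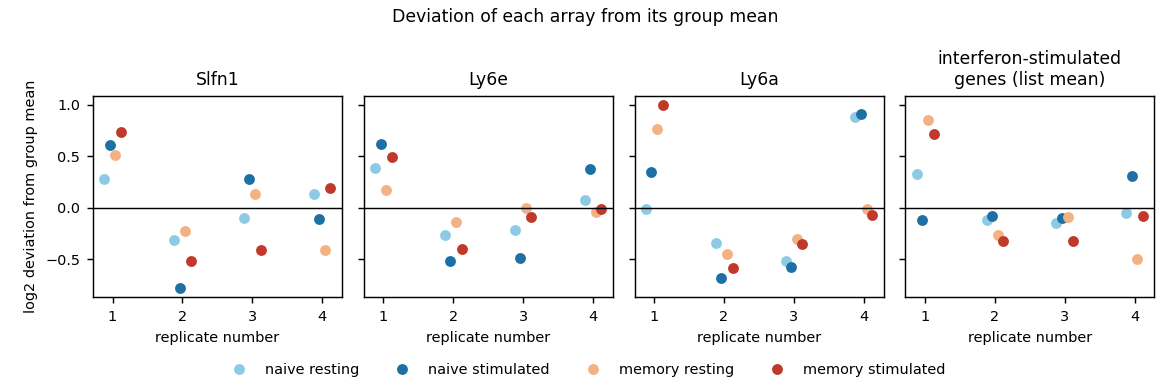
Log2 deviation of each array from its own group mean for Slfn1, Ly6e, Ly6a and the mean of 39 interferon-stimulated genes, by replicate number and coloured by group. Replicate 1 lay above the group mean in all 4 groups for Slfn1 and Ly6e, and in 3 of 4 groups for the interferon list.

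Because Slfn2 is known for quiescence, 25 genes linked to T cell quiescence were read on the same arrays. In naive cells 4 rose and 16 fell, and in memory cells 6 rose and 17 fell, with median changes of -1.57 and -1.17. The naive median was -0.69 with the repaired normexp correction, where 4 rose and 17 fell. The sphingosine 1-phosphate receptor S1pr1, used to exit lymph nodes, fell the most (-7.08 ± 0.26 and -7.73 ± 0.26), and the transcription factor Runx1 rose the most (2.49 ± 0.38 and 2.51 ± 0.38). Among all genes 36.7% were called higher and 32% lower in naive cells, and 30.1% and 40.8% in memory cells. Slfn2 moved against most of the quiescence list in memory cells, while Slfn1 moved with it. A link of either gene to that list was not tested.

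Most Ly6 proteins need a GPI anchor, so the genes that build and attach it were also counted. Of 25 tested, 6 rose and 9 fell in naive cells and 7 rose and 7 fell in memory cells, or 13 and 5 with median scaling. The extremes were Pigw (2.70 ± 0.19 in naive cells) and Pigp (-3.43 ± 0.17), both enzymes or subunits of early anchor synthesis. Between resting groups 1 was higher (Gpaa1, 0.43) and 1 lower (Pgap1, -0.57). Of 11 other GPI-anchored surface genes of T cells, 4 rose and 4 fell in naive cells and 5 rose and 3 fell in memory cells. Sema7a rose the most in both (8.42 ± 0.11 and 8.02 ± 0.11). Among all genes 36.7% were called higher and 32% lower in naive cells, and 30.1% and 40.8% in memory cells.

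Across the 16 arrays Slfn1 and Ly6e had a Pearson r of 0.974, Slfn1 and Ly6d 0.804, Slfn1 and Slfn2 -0.709, and Ly6a and Ly6c1 0.256. These are descriptions over arrays that share slides and group differences. Among the tested genes most like Ly6e were Pla2g4b (0.990) and Tmem71 (0.990), and among those most like Slfn1 were Tmem71 (0.978) and Shpk (0.976). Among those most like Slfn2 were Abcc1 (0.942) and Traf3 (0.934), and Slfn3 was closest to 5033430I15Rik (0.924), Cetn4 (0.919) and Anxa2 (0.904). Ly6a was closest to Gbp5 (0.897), an interferon-induced GTPase, Pnpla5 (0.888) and Gdf15 (0.885). Ly6c1 was closest to Klra13-ps (0.967), Cxcr5 (0.956) and Naip5 (0.954), and Ly6d to Natd1 (0.961), AK133468 (0.955) and Anxa5 (0.950).

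Neighbouring groups in the order of means were compared by an exact two-sided permutation test, 21 pairs over the 7 genes, in which 4 arrays against 4 cannot give less than 0.0286. The 7 pairs whose ranges did not overlap reached that value, with an adjusted p of 0.0857 over the 21. They were 3 for Ly6c1 and 1 each for Slfn1 and Ly6e (resting above stimulated), Slfn3 (memory stimulated above memory resting) and Slfn2 (naive resting above memory resting). The other pairs overlapped, so the order of their groups is not settled.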

How the data were processed

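The deposited scanner files of 16 single-colour Agilent arrays give each spot's processed signal as an intensity, background-subtracted by Feature Extraction 9.5.3.1 per the file headers. The deposited table of the authors' own processed values is also an intensity, on a linear scale with a median of 149 and a lowest value of 30 on each array. How it was normalized was not stated in the labels, and it holds 10 of the 11 member probes. Spots marked as outliers were left out. Log2 signals were set relative to the array's 75th percentile and replicate spots averaged. A probe was tested if well above background on 3 of 4 arrays of any group, and the probe with the highest mean represented its gene. Genes were fitted with limma 3.58.1 (R 4.3.3) over all 16 arrays with 4 group means, and p-values were adjusted over 18411 genes by Benjamini-Hochberg, with a threshold of 0.05. Fits were tested on simulated data. Probes were named through RefSeq tables by accession (22951), symbol (6659) or synonym (3109), and 8455 kept the file's name.

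Named genes are all 9 members, the 3 genes most like each tested member, and the largest rise and fall of each list; some that these rules name are not reported here. Members and lists were chosen with earlier results of these data known. Other genes printed were chosen after their values were seen. They are Cd8a, Cd4, S100a8, S100a9, Mpo, Csf1r, Lyz2, Cybb, Fcgr3, Ncr1 and Ighm as markers, and Slfn8 and Slfn10-ps from a short list. Cd177, Lypd3, Psca, Lypd5 and Tex101 were printed for their detection. Of 24 same-numbered pairs 16 correlated above 0.1 (range -0.21 to 0.585). All 4 did so only between the resting groups (0.302 to 0.585). The main fit held no pairing in any comparison, the resting one included, and the replicate number as a block was an alternative only. The number of arrays limits the precision. Alternatives covered background correction, scaling, probe choice, the fit and left-out arrays. A slide block could not be fitted, since each slide holds 1 group.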

Additional observations from a re-analysis of the deposited data

Results flagged for a closer look

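Of 44 sets of 4 arrays, from 11 probes in 4 groups, 5 held an array far from the other 3, where chance gives about 1 in 20. Slfn2 stood at 5.88 in memory stimulated replicate 1, and the nearest array was at 5.53. Slfn4 stood at -5.98 in the same sample (nearest -7.36), and Slfn5 at -7.42 in naive stimulated replicate 2 (nearest -6.34), both not well above background. The brighter Ly6c1 probe stood at 5.43 in memory resting replicate 1 (nearest 5.03) and at 3.65 in naive stimulated replicate 4 (nearest 2.84).

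The response to stimulation differed between memory and naive cells by the interaction test for 3 members. Memory minus naive response was 0.87 for Slfn2, -3.26 for Ly6a and -1.41 for Ly6c1 (limma adjusted p = 0.0101, 0.00141 and 0.00352).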

How the results depend on the processing

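The normexp correction as planned failed on 3 arrays, and in its fit 3 members were called in naive cells, 1 at rest, 0 after stimulation and 1 in the interaction by limma. It reversed Ly6d in memory cells (0.92), after stimulation (0.67) and in the interaction (0.95), and Slfn1 after stimulation and in the interaction (0.31 each), and over all genes it called 6597 in naive cells, 525 at rest, 454 after stimulation and 211 in the interaction, against 12655, 3926, 4434 and 3639 as reported. Median scaling called 4 members and 6498 genes at rest and 6725 genes in the interaction, and Ly6e at rest became 0.00. The uncalled Ly6d interaction turned positive with the repaired normexp correction (0.13), quantile normalization (0.34), median scaling (0.31) and the authors' table (0.27). Slfn2 in naive cells turned to -0.25 (quantile) and -0.08 (authors' table), and Ly6c1 to -0.18 with its second probe. The cause was not tested. Leaving out 1 array gave 5 to 6 members in naive cells, 6 to 7 in memory cells, 1 to 3 at rest, 3 to 5 after stimulation and 3 to 3 in the interaction, with Slfn1 at rest from -0.20 to 0.10 and the Ly6d interaction from -0.25 to 0.07. Without replicate 1 of every group 1 member was called at rest. With the replicate number as a block 5, 7, 3, 6 and 4 members were called in the 5 comparisons. The calls gained were Ly6a in memory cells (adjusted p = 0.00719), Slfn3 at rest (0.0412), Slfn1 (0.0125) and Ly6e (0.0271) after stimulation and the Ly6e interaction (0.0299). No member's call was lost, and 12 of 16 arrays correlated best with their own number.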
